A study of Mus musculus with 12 samples.

Results

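The BCL2 family genes *Bcl2*, *Bcl2l1*, *Mcl1*, *Bcl2a1b*, *Bcl2l11*, *Pmaip1*, *Bbc3*, *Bax*, *Bak1* and *Bid* were followed in bone marrow-derived macrophages (BMDMs) by RNA-seq. These 10 genes were chosen by symbol, matched to Ensembl identifiers with GENCODE M21, and all 10 had a row among the 53379 genes of the count table. BMDMs of 4 C57Bl/6J mice were left untreated or exposed to 1 µM fenoterol, a β2-adrenergic receptor agonist, for 1 h or 4 h, so that each mouse gave 1 library to each of the 3 groups. The mice were male adults according to the methods. All groups were cultured with L929 cell-conditioned medium, a source of the survival factor M-CSF, and fenoterol was added directly to the medium in which the plated cells had spent the night. The comparisons asked how the RNA of survival and death genes stood at each time after β2-adrenergic stimulation. The same untreated group, for which the labels give no time, was the control at both times, so effects of hours in culture were not tested.

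BCL2 family proteins decide whether the outer mitochondrial membrane stays intact. Pro-survival members (BCL2, BCL-XL from *Bcl2l1*, MCL1 and A1 from *Bcl2a1b*) hold the effectors BAX and BAK in check, and BH3-only proteins (BIM from *Bcl2l11*, NOXA from *Pmaip1*, PUMA from *Bbc3*, and BID) bind the pro-survival members or activate the effectors. Once active, BAX and BAK open the membrane, cytochrome c leaves the mitochondria and caspases are switched on. Macrophages grown from bone marrow depend on M-CSF for survival, and β2-adrenergic receptors signal through cAMP, protein kinase A and the transcription factor CREB.

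The promoters of 4 members that changed in different ways are shown because cAMP signalling and survival signalling are known to act through factors that bind short motifs near gene starts. RefSeq sequences (GRCm38.p6) were matched for 9 of the 10 members, and each run is the 250 bases before the RefSeq start that lies nearest to the GENCODE 5′ end, printed 5′ to 3′ on the gene's strand. Capitals mark the motif letters that were found. *Bcl2l11* is at chr2:128125788-128126037 on the plus strand, *Bbc3* at chr7:16309333-16309582 on the plus strand, *Bcl2* at chr1:106714291-106714540 on the minus strand and *Bcl2l1* at chr2:152831729-152831978 on the minus strand.
*Bcl2l11*: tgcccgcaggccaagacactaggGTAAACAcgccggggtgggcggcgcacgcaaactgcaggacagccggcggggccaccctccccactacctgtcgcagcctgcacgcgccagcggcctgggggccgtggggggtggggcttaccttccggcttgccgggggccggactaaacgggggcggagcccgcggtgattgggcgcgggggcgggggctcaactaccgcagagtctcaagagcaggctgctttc
*Bbc3*: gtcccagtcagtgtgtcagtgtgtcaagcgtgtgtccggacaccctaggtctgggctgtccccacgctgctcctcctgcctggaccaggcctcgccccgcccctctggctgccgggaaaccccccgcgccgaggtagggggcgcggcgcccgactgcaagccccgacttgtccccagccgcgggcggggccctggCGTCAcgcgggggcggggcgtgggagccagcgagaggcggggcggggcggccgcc
*Bcl2*: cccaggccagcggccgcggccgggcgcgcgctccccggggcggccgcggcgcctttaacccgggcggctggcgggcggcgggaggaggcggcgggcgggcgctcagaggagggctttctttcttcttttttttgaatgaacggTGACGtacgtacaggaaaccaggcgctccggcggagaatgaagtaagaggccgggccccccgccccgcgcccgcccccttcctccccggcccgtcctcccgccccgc
*Bcl2l1*: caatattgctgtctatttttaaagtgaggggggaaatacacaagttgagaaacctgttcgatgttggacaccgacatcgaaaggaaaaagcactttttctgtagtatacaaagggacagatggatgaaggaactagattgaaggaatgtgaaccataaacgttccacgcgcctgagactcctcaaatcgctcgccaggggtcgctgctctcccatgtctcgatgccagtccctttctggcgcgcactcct

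Both strands were searched for the CREB motif TGACGTCA, its half-site TGACG, the AP-1 motif TGACTCA and the FOXO motif GTAAACA, where the half-site is also part of the full CREB motif. The full CREB motif and the AP-1 motif were in 0 of the 9 members' windows, and they were in 1.55% and 4.46% of 32851 RefSeq promoter windows of the same length. The half-site was in the windows of *Bcl2* (bases 107 to 103 before the start), *Bbc3* (bases 55 to 51, on the opposite strand) and *Bcl2a1b* (bases 66 to 62), against 17.8% of all windows. Of the 9 windows, only that of *Bcl2l11* held the FOXO motif, at bases 227 to 221 before the start, against 3.17% of all windows. The windows of *Bcl2l1*, *Mcl1*, *Bid*, *Bax* and *Bak1* held none of these letters. *Bcl2l1* and *Bbc3* each have 3 RefSeq starts and *Bcl2l11* has 2, of which 1 each is shown. The windows of *Bbc3* and *Bak1* lie inside the genes as GENCODE annotates them, downstream of the GENCODE 5′ end, and those of *Bcl2a1b* and *Bid* reach into the genes. These matches describe letters and carry no evidence of binding.

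The total count was 14580533 to 24153284 per library, and 12386 genes passed the filter on low counts, all 10 members among them. Normalized counts below are counts scaled by the TMM method to the mean library size, given as mean ± SD over n = 4 mice. Fold changes, their standard errors (SE) and adjusted p-values come from edgeR's quasi-likelihood test with Benjamini-Hochberg adjustment over all genes tested, and an adjusted p under 0.05 was called a change. The macrophage label held: all 7 macrophage markers were tested, with a summed level of 626443 to 781865 normalized counts. At 4 h, 4 of these 7 markers (57.1%) were lower and 2 (28.6%) higher, against 20.4% and 19.7% of all genes tested. *Mertk* led the falls (log2 fold change -1.51) and was also lower at 1 h (-0.20, adjusted p = 0.0153). B cell and mast cell or basophil markers summed to at most 6.26 and 3.92, erythroid markers were at 0 in every library, and *Cd3e* and *Cd3d* were at or near 0, whereas the T cell list summed to 417 to 782 through *Cd4*. Dendritic cell markers summed to 4.63 to 25.8, neutrophil markers to 342 to 676 and fibroblast markers to 264 to 772. The groups overlapped in each of these sums, and no marker of a cell type other than macrophages was called. In bulk RNA, fewer cells of a type and less RNA per cell cannot be told apart.

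At 1 h, 2 members were higher than in untreated BMDMs (*Bcl2l11* and *Bcl2*) and 2 were lower (*Bbc3* and *Bid*), while 10.0% of all genes tested were called higher and 10.1% lower. At 4 h, 3 members were higher (*Bcl2l11*, *Bid* and *Bak1*) and 4 were lower (*Bcl2l1*, *Bcl2a1b*, *Bbc3* and *Bax*), against 19.7% of all genes higher and 20.4% lower. Between the time points, 3 members were higher at 4 h than at 1 h (*Bid*, *Bak1* and *Mcl1*) and 5 were lower (*Bcl2*, *Bcl2l1*, *Bcl2a1b*, *Bcl2l11* and *Bbc3*), against 18.7% and 19.8% of all genes. The median size of the log2 fold change over the 10 members was 0.30 at 1 h, 0.35 at 4 h and 0.43 between the time points, where it was 0.15, 0.23 and 0.22 over all genes tested. The median signed value was -0.04, -0.01 and -0.30 over the members and -0.00, 0.00 and 0.01 over all genes. Each class had called members in both directions in at least 1 comparison, and the 3 comparisons share libraries with each other.

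**Figure D1:**
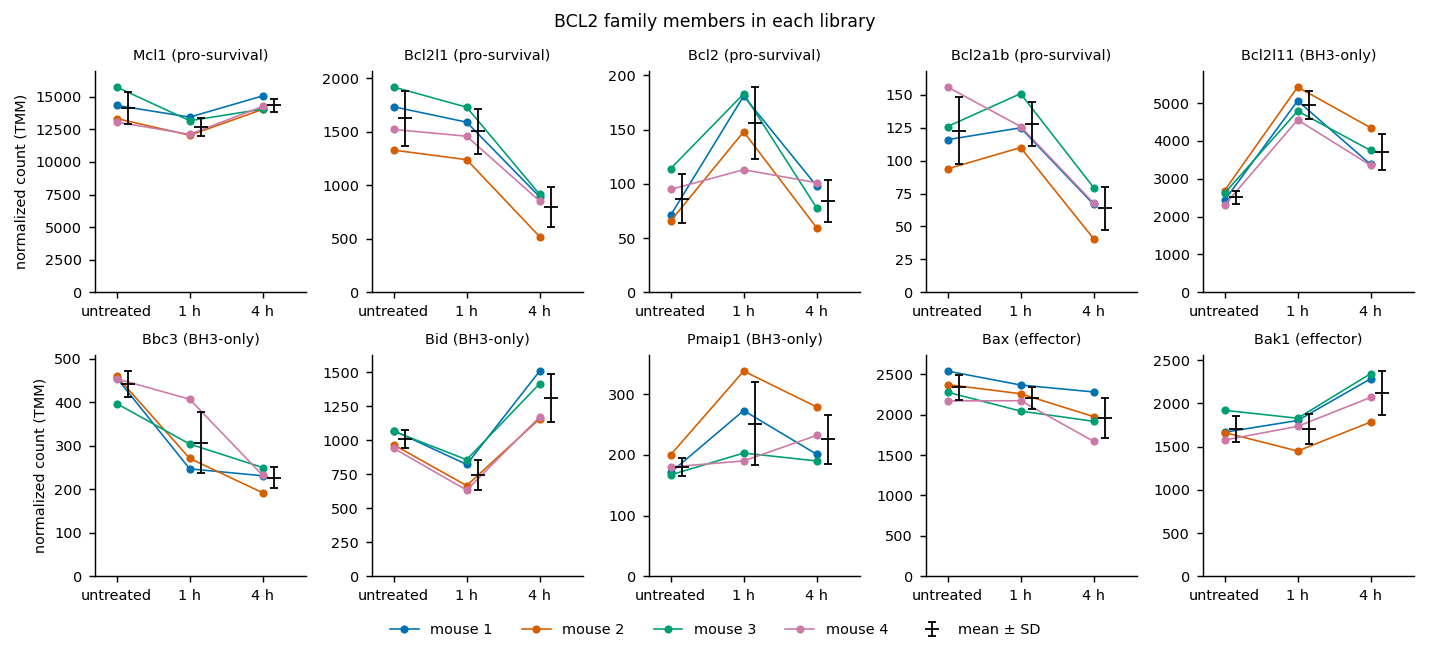
Normalized counts (TMM, y axis from 0) of the 10 members in untreated BMDMs and after 1 h and 4 h of fenoterol, with 1 coloured point and line per mouse and the mean ± SD of n = 4 in black. The *Bcl2l11* points at 1 h lie at 4557 to 5426, above all untreated points, and the *Bid* points fall at 1 h and stand above untreated at 4 h in every mouse.

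The levels of different genes were compared as normalized counts per kilobase of annotated exon. In untreated BMDMs *Mcl1* stood highest at 4131 ± 356 per kb, followed by *Bax* at 1484 ± 99.3, *Bak1* at 708 ± 61.8, *Bcl2l1* at 354 ± 55.8, *Bcl2l11* at 313 ± 21.8, *Bid* at 285 ± 18.9, *Bbc3* at 208 ± 14.2, *Bcl2a1b* at 151 ± 31.7, *Pmaip1* at 65.6 ± 5.37 and *Bcl2* at 9.43 ± 2.43 (SD, n = 4). The libraries of neighbours in this order overlapped for *Bcl2l1* and *Bcl2l11*, for *Bcl2l11* and *Bid*, and for *Bbc3* and *Bcl2a1b*, and did not overlap for the other neighbours. The place of *Bcl2a1b* is uncertain, since most of its sequence is shared with near-identical copies and reads from shared sequence may be uncounted, so that its per-kb level may be understated. At 1 h *Bcl2l11* reached 618 ± 46.6 per kb, and its libraries (568 to 676) overlapped those of *Bak1* (602 to 759). At 4 h *Bcl2l11* stood at 462 ± 57.9 and *Bid* at 370 ± 49.7, both with every library above those of *Bcl2l1*, which stood at 173 ± 40.3 per kb. *Bcl2* was the lowest member in every group, at 17.1 ± 3.63 per kb at 1 h and 9.19 ± 2.13 at 4 h.

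**Figure D2:**
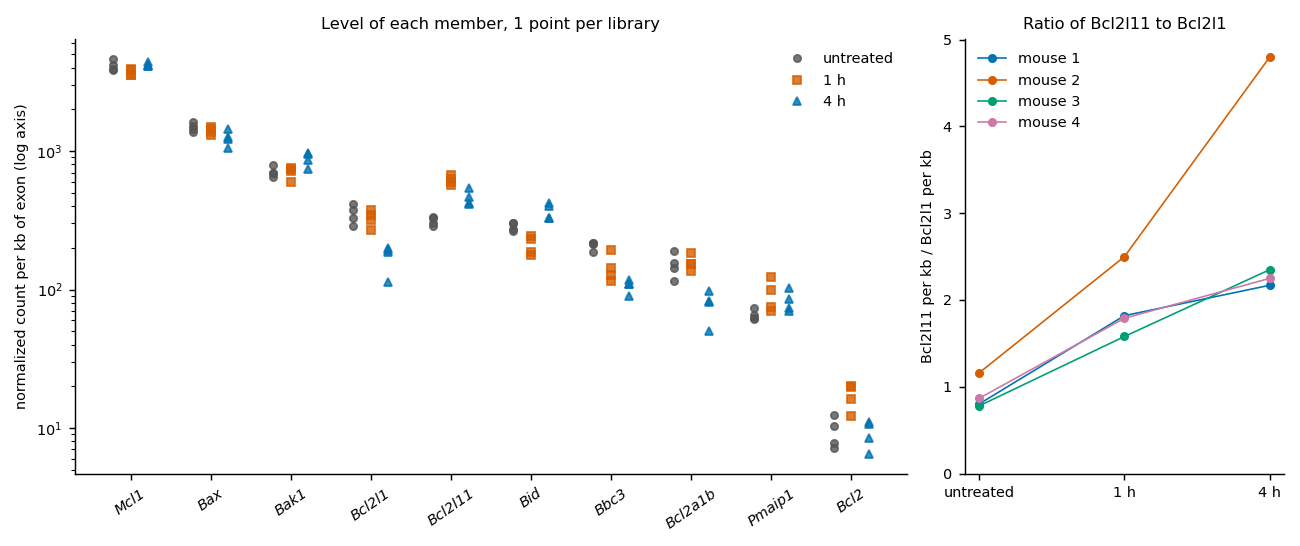
Left, level of each member per library in normalized counts per kb of exon on a log axis, with circles for untreated, squares for 1 h and triangles for 4 h. Right, the ratio of the *Bcl2l11* to the *Bcl2l1* level in each library on a linear axis from 0, with 1 line per mouse. *Mcl1* is the highest and *Bcl2* the lowest member in all groups, and the ratio is 0.780 to 1.16 untreated, 1.58 to 2.50 at 1 h and 2.17 to 4.80 at 4 h.

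Among the pro-survival members, *Bcl2l1* and *Bcl2a1b* fell at 4 h, and *Bcl2* rose at 1 h and stood at 84.2 ± 19.5 normalized counts at 4 h against 86.3 ± 22.3 untreated. *Mcl1* was not called against untreated at either time. *Mcl1* made up 88.9% ± 1.12 of the summed per-kb level of these 4 genes without fenoterol, 88.1% ± 1.01 after 1 h and 94.2% ± 1.28 after 4 h (SD, n = 4). The sum itself was 4646 ± 409 per kb untreated, 4216 ± 265 at 1 h and 4461 ± 175 at 4 h, with ranges that overlapped between all groups. The ranges were read without pairing by mouse, and *Mcl1*, the bulk of the sum, was lower at 1 h than untreated in 4 of 4 mice. These shares and sums carry the same uncertainty in *Bcl2a1b*.

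*Bcl2l1* (ENSMUSG00000007659, chr2:152780668-152831728 of GRCm38, minus strand) encodes BCL-XL. Its normalized counts in mice 1 to 4 were 1732, 1327, 1916 and 1520 untreated, 1588, 1238, 1728 and 1457 at 1 h, and 891, 519, 914 and 851 at 4 h. All libraries at 4 h lay below all others, mouse 2 was the lowest mouse in each group, and the 1 h libraries were mixed with the untreated ones. At 4 h the log2 fold change was -1.03 (SE 0.16, adjusted p = 0.000121), lower in 4 of 4 mice, and at 1 h -0.11 (SE 0.16, adjusted p = 0.703). From 1 h to 4 h it was -0.92 (SE 0.16, adjusted p = 0.000415). Its share of the pro-survival per-kb level was 7.59% ± 0.618 untreated and 3.86% ± 0.830 at 4 h.

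*Bcl2a1b* (ENSMUSG00000089929, chr9:89199209-89207827, plus strand) is a copy of the gene for A1. It had 116, 93.8, 126 and 156 normalized counts in mice 1 to 4 untreated, 125, 110, 151 and 126 at 1 h, and 66.8, 40.7, 79.6 and 67.8 at 4 h. The 4 h libraries lay below all others, and untreated and 1 h libraries overlapped. The log2 fold change was 0.06 (SE 0.19, adjusted p = 0.887) at 1 h and -0.95 (SE 0.20, adjusted p = 0.00144) at 4 h, lower in 4 of 4 mice. Between the time points it was -1.0 (SE 0.20, adjusted p = 0.00104). The gene is uncertain as a unit, since 79.2% of its stretches of 50 bases also occur in *Bcl2a1a*, *Bcl2a1c*, *Bcl2a1d* or *Gm29094*, and its raw count was 39 to 154 per library. With the counts of *Bcl2a1a* and *Bcl2a1d* added, the log2 fold change at 4 h was -0.849 (adjusted p = 0.00319).

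*Bcl2* (ENSMUSG00000057329, chr1:106538178-106714274, minus strand), the founding member of the family, had 71.0, 65.7, 114 and 94.8 normalized counts untreated, 181, 148, 183 and 113 at 1 h, and 98.0, 59.5, 77.8 and 101 at 4 h. It was higher at 1 h in 4 of 4 mice, most in mouse 1 and least in mouse 4, whose 1 h value of 113 lay just under the highest untreated value. Its log2 fold change was 0.85 (SE 0.22, adjusted p = 0.0113) at 1 h, -0.04 (SE 0.22, adjusted p = 0.919) at 4 h and -0.89 (SE 0.21, adjusted p = 0.00452) from 1 h to 4 h. Its share of the pro-survival per-kb level was 0.402% ± 0.0672 at its highest, at 1 h.

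*Mcl1* (ENSMUSG00000038612, chr3:95658788-95663176, plus strand), whose protein is short-lived, had 14341, 13333, 15751 and 13061 normalized counts untreated, 13442, 12050, 13167 and 12123 at 1 h, and 15071, 14037, 14054 and 14267 at 4 h. It was lower at 1 h in 4 of 4 mice with overlapping groups, and every 4 h library lay above every 1 h library. The log2 fold change at 1 h was -0.15 (SE 0.06, adjusted p = 0.114), which passed the threshold with the mouse as a block (adjusted p = 0.0252) and with scaling by library size only (-0.222, adjusted p = 0.0186). Without untreated mouse 3, the highest untreated library, it was -0.0925 (adjusted p = 0.33). At 4 h it was 0.02 (SE 0.06, adjusted p = 0.808). The rise from 1 h to 4 h was 0.18 (SE 0.06, adjusted p = 0.0397), and it missed the threshold in 9 of 19 alternatives, with an adjusted p of up to 0.111.

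**Figure D3:**
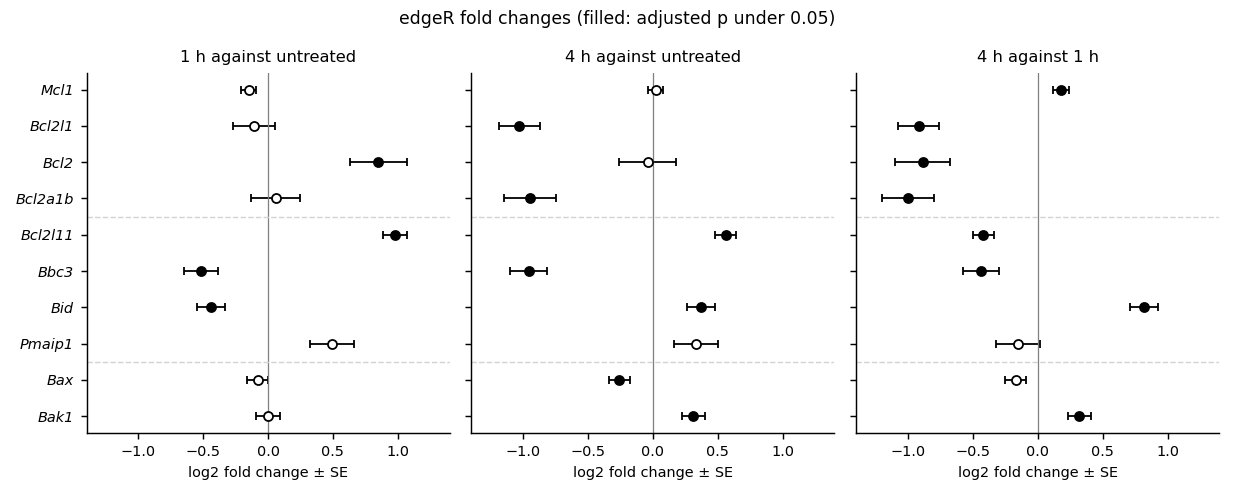
Log2 fold changes ± SE of the 10 members from edgeR for the 3 comparisons, with filled points where the adjusted p was under 0.05. Dashed lines part pro-survival (top), BH3-only and effector members. *Bcl2l11* is at 0.98 at 1 h and 0.56 at 4 h, and *Bid* at -0.44 and 0.37.

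The BH3-only members moved apart. *Bcl2l11* rose at both times, *Bbc3* fell at both, *Bid* fell at 1 h and rose at 4 h, and *Pmaip1* was higher in every mouse without passing the threshold. Their summed level was 872 ± 27.6 per kb untreated, 1064 ± 45.1 at 1 h and 1021 ± 54.5 at 4 h (SD, n = 4), and all fenoterol libraries (942 to 1115) lay above the untreated ones (833 to 897). The sum is no total of BH3-only RNA, since it leaves out the BH3-only genes *Bmf* and *Bad*. *Bmf* fell from 1244 normalized counts untreated to 654 at 1 h and 788 at 4 h, and *Bad* stood at 693, 661 and 813. *Bcl2l11* held 35.9% ± 1.68 of this sum untreated, 58.0% ± 2.00 at 1 h and 45.2% ± 4.26 at 4 h. The share of *Bbc3* was 23.9% ± 1.83, 13.7% ± 3.75 and 10.5% ± 1.35, and that of *Bid* 32.7% ± 1.93, 19.7% ± 2.92 and 36.3% ± 4.48.

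*Bcl2l11* (ENSMUSG00000027381, chr2:128126038-128162547, plus strand) encodes BIM, which binds all pro-survival members. Its normalized counts in mice 1 to 4 were 2429, 2689, 2619 and 2307 untreated, 5062, 5426, 4791 and 4557 at 1 h, and 3379, 4350, 3750 and 3355 at 4 h. The 3 groups did not overlap, with 1 h highest, and mouse 2 was the highest mouse in each. At 1 h the log2 fold change was 0.98 (SE 0.09, adjusted p = 7.23e-07), a 1.98-fold level, and ranged from 0.87 to 1.06 over the mice. At 4 h it was 0.56 (SE 0.08, adjusted p = 8.72e-05), and from 1 h to 4 h -0.42 (SE 0.08, adjusted p = 0.0012). By p-value *Bcl2l11* was number 279 of the 12386 genes at 1 h. As shown above, its promoter window was the one with the FOXO motif and had no CREB half-site, and a role of any motif in the rise was not tested.

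*Bbc3* (ENSMUSG00000002083, chr7:16308393-16318205, plus strand) encodes PUMA, a classical target of p53. It had 456, 460, 397 and 454 normalized counts untreated, 247, 271, 304 and 407 at 1 h, and 231, 192, 250 and 232 at 4 h. At 1 h it was lower in 4 of 4 mice, but mouse 4 (407) remained within the untreated range, and at 4 h all libraries lay below the untreated ones. In the test *Bbc3* had a log2 fold change of -0.52 (SE 0.13, adjusted p = 0.0126) at 1 h and -0.96 (SE 0.14, adjusted p = 5.01e-05) at 4 h. The step from 1 h to 4 h, -0.44 (SE 0.14, adjusted p = 0.0204), missed the threshold without mouse 4 at 1 h (-0.277, adjusted p = 0.0665), without mouse 2 at 4 h (-0.373, adjusted p = 0.0641) and with scaling by library size only (-0.351, adjusted p = 0.0603).

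*Bid* (ENSMUSG00000004446, chr6:120891930-120916853, minus strand) encodes the BH3-only protein that caspase-8 cleaves downstream of death receptors. Its normalized counts were 1072, 968, 1067 and 942 untreated, 823, 667, 858 and 634 at 1 h, and 1510, 1159, 1417 and 1172 at 4 h. No group overlapped another, with 1 h lowest and 4 h highest, and all 4 mice followed this order. The log2 fold change was -0.44 (SE 0.11, adjusted p = 0.00934) at 1 h, 0.37 (SE 0.11, adjusted p = 0.0115) at 4 h and 0.82 (SE 0.11, adjusted p = 3.56e-05) from 1 h to 4 h. Of its exon bases, 17.7% overlap *Bcl2l13* on the opposite strand, and the strand setting of the counting is not stated. *Bcl2l13* itself had log2 fold changes of 0.01 (adjusted p = 0.97) at 1 h and 0.10 (adjusted p = 0.164) at 4 h.

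*Pmaip1* (ENSMUSG00000024521, chr18:66458533-66465565, plus strand) encodes NOXA, which binds mainly MCL1 and A1. It had 171, 200, 167 and 180 normalized counts untreated, 273, 338, 203 and 190 at 1 h, and 201, 279, 190 and 232 at 4 h. Every mouse had a higher value at both times than untreated, most in mouse 2, with overlapping groups. In the test *Pmaip1* had a log2 fold change of 0.49 (SE 0.17, adjusted p = 0.0671) at 1 h and 0.33 (SE 0.17, adjusted p = 0.15) at 4 h, and with the mouse as a block 0.462 (adjusted p = 0.0071) and 0.324 (adjusted p = 0.0321). At 1 h the call was also made by DESeq2 (adjusted p = 0.0336), without the filter on low counts (adjusted p = 0.0413), without mouse 3 at 1 h (adjusted p = 0.0423) and without mouse 4 at 1 h (adjusted p = 0.0254). Without mouse 2 the values were smaller, 0.312 (adjusted p = 0.222) without its 1 h library and, for 4 h, 0.218 (adjusted p = 0.377) without its 4 h library. Between the time points the change was -0.15 (SE 0.17, adjusted p = 0.528).

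The effectors passed no test at 1 h and were called in opposite directions at 4 h. *Bax* (ENSMUSG00000003873, chr7:45461697-45466898, minus strand) had 2538, 2371, 2277 and 2169 normalized counts untreated, 2366, 2258, 2043 and 2172 at 1 h, and 2280, 1975, 1917 and 1669 at 4 h. It was lower at 4 h than untreated in 4 of 4 mice, and the groups overlapped. The log2 fold change was -0.08 (SE 0.08, adjusted p = 0.572) at 1 h and -0.26 (SE 0.08, adjusted p = 0.0245) at 4 h. The latter missed the threshold without untreated mouse 1 (adjusted p = 0.0803), untreated mouse 2 (0.0529), mouse 3 at 4 h (0.0582) or mouse 4 at 4 h (0.0761). From 1 h to 4 h it was -0.17 (SE 0.08, adjusted p = 0.119), with an adjusted p of 0.0115 with the mouse as a block and 0.019 without mouse 1 at 4 h. It was smaller without mouse 4 at 4 h (-0.103, adjusted p = 0.328) and with scaling by library size only (-0.0817, adjusted p = 0.427).

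*Bak1* (ENSMUSG00000057789, chr17:27019810-27029009, minus strand) had 1665, 1662, 1919 and 1575 normalized counts untreated, 1801, 1448, 1827 and 1733 at 1 h, and 2283, 1783, 2342 and 2068 at 4 h. Each mouse was highest at 4 h, and the mouse 2 value at 4 h lay within the ranges of the other groups. For *Bak1* the log2 fold change was -0.00 (SE 0.09, adjusted p = 0.992) at 1 h, 0.31 (SE 0.09, adjusted p = 0.0161) at 4 h and 0.32 (SE 0.09, adjusted p = 0.0163) from 1 h to 4 h. The call at 4 h was lost without untreated mouse 4 (adjusted p = 0.06) or mouse 3 at 4 h (0.0552), and that between the times without mouse 2 at 1 h (0.0538) or mouse 3 at 4 h (0.0564). Of its exon bases, 25.5% overlap *Ggnbp1* on the opposite strand, a gene with 389 counts over the 12 libraries against 22283 for *Bak1*. *Bax* held 67.7% ± 2.34 of the summed effector level per kb untreated, 66.5% ± 3.05 at 1 h and 58.5% ± 3.74 at 4 h (SD, n = 4), while the sum was 2193 ± 117, 2109 ± 97.0 and 2124 ± 214 per kb.

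The levels of *Bcl2l11* and *Bcl2l1* were also set against each other, a pair chosen after the values were seen and given with no test. The ratio of the per-kb levels was 0.902 ± 0.175 untreated, 1.92 ± 0.401 at 1 h and 2.89 ± 1.27 at 4 h (SD, n = 4). At 4 h mouse 2 had 4.80 and the other mice 2.17, 2.35 and 2.25, so 1 library carried much of the mean. The ratio was lowest untreated and highest at 4 h in 4 of 4 mice, and the ranges at 1 h (1.58 to 2.50) and 4 h overlapped.

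Of 56 further genes of apoptosis pathways, 46 were tested, of which 5 (10.9%) were higher and 8 (17.4%) lower at 1 h, against 10.0% and 10.1% of all genes, and 12 (26.1%) were higher and 7 (15.2%) lower at 4 h, against 19.7% and 20.4%. Their median size of the log2 fold change was 0.14 at 1 h and 0.21 at 4 h, close to the 0.15 and 0.23 of all genes, given as a description with no test. The genes counted as higher include *Bcl2a1d* at 1 h and *Cycs* at 4 h. Both lay near the filter on low counts, with raw counts of 2 to 16 and 1 to 15 per library, so these shares rest in part on such genes. Among 8 tested genes of the rest of the BCL2 family, *Bmf*, a BH3-only gene, fell from 1244 ± 196 normalized counts to 654 ± 127 at 1 h (log2 fold change -0.93, SE 0.16, adjusted p = 0.000573) and 788 ± 164 at 4 h (-0.66, SE 0.15, adjusted p = 0.00328). *Bad*, another BH3-only gene, was higher at 4 h only (0.23, adjusted p = 0.0156). The other call was *Bcl2a1d* at 1 h, a gene outside the rule for named genes that was chosen after its values were seen. It had 3.69 normalized counts untreated, 13.4 at 1 h and 5.01 at 4 h, passed the filter on low counts only through the 1 h group and shares sequence with *Bcl2a1b*, so no fold or p is given for it.

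Downstream of the mitochondria, *Apaf1*, the scaffold of the apoptosome, rose at 1 h (0.24, adjusted p = 0.0105) and at 4 h (0.40, adjusted p = 8.22e-05). *Casp9*, the initiator caspase it activates, fell at 1 h (-0.16, adjusted p = 0.0218). Among 7 genes of inhibitor of apoptosis proteins and their antagonists, *Htra2*, a mitochondrial protease that antagonizes these inhibitors, fell from 1663 ± 23.9 to 1399 ± 65.4 at 1 h (-0.25, adjusted p = 0.00143) and to 733 ± 24.1 at 4 h (-1.18, SE 0.05, adjusted p = 1.69e-10). The inhibitors *Birc6* (0.37, adjusted p = 0.00155) and *Xiap* (0.21, adjusted p = 0.0411) were higher at 4 h.

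In the death receptor arm, 1 of 8 genes was higher and 3 were lower at 1 h, where 10.0% and 10.1% of all genes were, and 2 were higher and 1 lower at 4 h, where 19.7% and 20.4% were. *Cflar*, which encodes the caspase-8 inhibitor c-FLIP, went from 2280 ± 26.6 normalized counts to 1637 ± 57.2 at 1 h (-0.48, SE 0.05, adjusted p = 3.52e-06) and stood at 2449 ± 118 at 4 h (0.10, adjusted p = 0.105). A low point at 1 h was also that of *Bid*, *Mcl1*, *Fadd*, *Casp9* and *Trp53*, among others. The adaptor *Fadd* fell at 1 h (-0.56, adjusted p = 0.00254) and 4 h (-0.36, adjusted p = 0.0203), *Casp8* rose at 4 h (0.48, adjusted p = 2.57e-06), and the TNF receptor gene *Tnfrsf1a* rose at 1 h (0.27, adjusted p = 0.00105) and 4 h (0.37, adjusted p = 2.92e-05). Of 4 tested genes for the turnover of MCL1 protein, the deubiquitinase *Usp9x* (0.29, adjusted p = 0.0185) and the ubiquitin ligase subunit *Btrc* (0.24, adjusted p = 0.0137) were higher at 4 h.

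Of 9 tested genes of p53 and its targets, 2 were higher and 1 lower at 1 h, against 10.0% and 10.1% of all genes. At 4 h 2 (22.2%) were higher and 2 lower, near the 19.7% and 20.4% of all genes. *Cdkn1a*, which encodes the cell cycle inhibitor p21, rose from 4687 ± 258 to 20217 ± 1314 normalized counts at 1 h (2.11, SE 0.08, adjusted p = 8.41e-11) and stood at 9836 ± 1107 at 4 h (1.07, adjusted p = 6.6e-08). *Sesn2* was higher at 1 h (0.53, adjusted p = 0.000107) and 4 h (0.64, adjusted p = 7.95e-06), whereas *Trp53* was lower at 1 h (-0.25, adjusted p = 0.00493) and *Phlda3* (-0.38, adjusted p = 0.0291) and *Zmat3* (-0.27, adjusted p = 0.0206) were lower at 4 h. Among the FOXO factors, which can activate *Bcl2l11*, *Foxo3* was lower at 4 h (-0.63, adjusted p = 2.82e-05) and *Foxo4* at 1 h (-0.29, adjusted p = 0.00469) and 4 h (-0.33, adjusted p = 0.000837). The other FOXO gene tested was not called against untreated at either time.

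**Figure D4:**
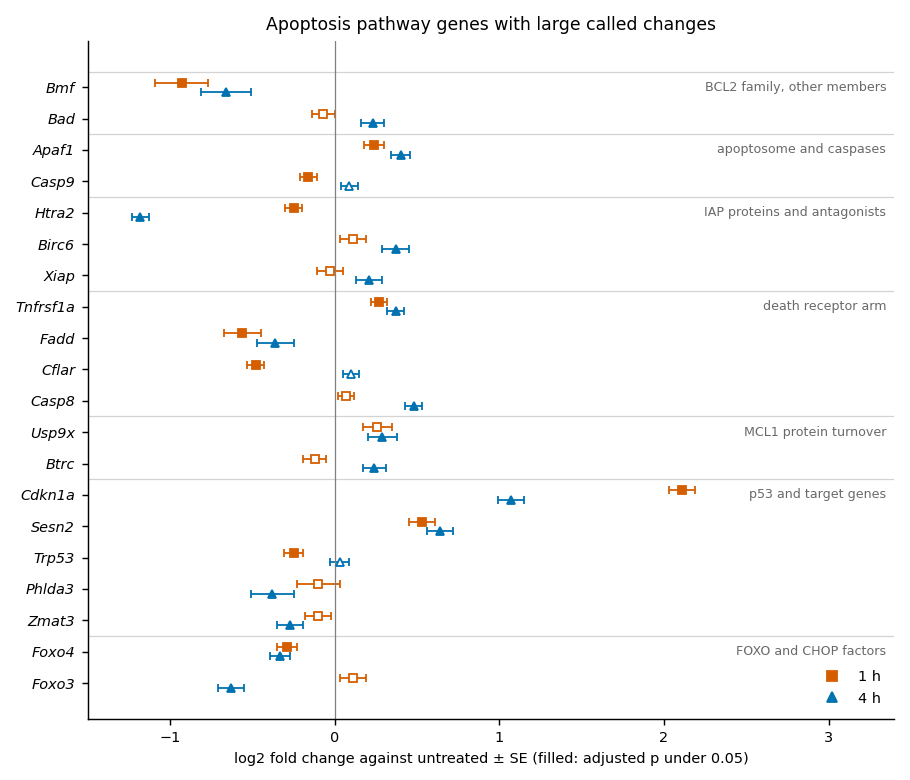
Log2 fold changes against untreated ± SE of the pathway genes named in the text, with squares for 1 h, triangles for 4 h and filled symbols where the adjusted p was under 0.05. *Cdkn1a* stands at 2.11 at 1 h and 1.07 at 4 h, *Htra2* at -1.18 at 4 h and *Bmf* at -0.93 at 1 h.

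Genes with the pattern most like that of each member called against untreated were listed by Pearson's r of log2 normalized counts over the 12 libraries, among 10290 genes. These libraries share mice and treatment, so r is a description of likeness. *Bcl2l11* was most like *Tsc22d3* (r = 0.988), *Rgs2* (0.988) and *Lats2* (0.984). *Bid* was most like *Itga5* (0.978), *Nme7* (0.972) and *Dnajc16* (0.955), and *Bbc3* like *Nfkbia* (0.976), *Dbp* (0.967) and *Tfeb* (0.963). *Bcl2l1* was most like *Tmem192* (0.979), *Itga6* (0.976) and *Cd200r4* (0.973), and *Bcl2a1b* had *Nup85* (0.950) and *Bcl2l1* itself (0.945) among its nearest patterns. *Bcl2* was most like *4930503L19Rik* (0.927), *Cetn3* (0.924) and *Txnl1* (0.922), *Bax* like *Serpinf1* (0.956), *Gstm1* (0.930) and *Gpx3* (0.924), and *Bak1* like *Brca1* (0.949), *Rangap1* (0.949) and *Sel1l3* (0.922).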

How the data were processed

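RNA of BMDMs from 4 C57Bl/6J mice in 3 conditions was sequenced as stranded mRNA libraries with single-end reads of 50 bases. The authors mapped the reads to GRCm38 with TopHat2 2.0.11 and counted them per gene with HTSeq 0.8.0, and the deposited values are raw counts, whole numbers without normalization. The strand option and annotation release are not given in the sources used here. Reads that map to several places are usually not counted this way, which bears on *Bcl2a1b*. The depth was 14580533 to 24153284 counts per library, and every row of the table named a gene. Symbols, coordinates and exon lengths came from GENCODE M21, to which 53274 of 53379 identifiers were matched.

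The counts were filtered with filterByExpr on the 3 groups, scaled by TMM (factors 0.953 to 1.042) and tested in edgeR 4.0.16 (R 4.3.3) with glmQLFit and glmQLFTest, in 1 fit over 12 libraries with a mean per group. P-values were adjusted over the 12386 genes tested, with 0.05 as the threshold. The SE was taken from the fitted change and the F statistic. The common biological coefficient of variation was 0.112. Alternatives were DESeq2 1.42.0, limma-voom (limma 3.58.1), RLE factors, library size only, no filter, a fit of the 2 compared groups alone, a replicate block for the mouse, a threshold of 0.01, each library left out in turn, and *Bcl2a1b* summed with its copies. The edgeR fits with and without the block, DESeq2 and limma-voom were tested on simulated data. Figures were drawn with matplotlib 3.10.9.

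The sample titles give the mouse of each library, so the libraries are paired by animal. Deviations from the group means correlated with r of 0.291 to 0.561 within a mouse (12 pairs) and -0.300 to 0.0849 between mice (36 pairs). Because each group was centred on its own mean, the values between mice are pulled to the negative side by construction. Counts of replicates differed by more than counting error (chi-square over degrees of freedom 9.13 to 18.7).

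The text names all 10 members and, for each pathway list and time, the up to 2 largest rises and 2 largest falls among called genes that averaged 20 or more normalized counts. Members, lists and motifs were chosen with earlier results of these data known. For 2 genes that these rules name, results are not reported here.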

Additional observations from a re-analysis of the deposited data

Results flagged for a closer look

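With 30 groups of 4 libraries examined, 2 held a library that stood far from the others by Dixon's criterion, where about 1.5 would be expected by chance. *Bcl2l1* at 4 h had 519 normalized counts in mouse 2 against 851 to 914 in the other mice. *Bbc3* in untreated BMDMs had 397 in mouse 3 against 454 to 460.

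The effects at 1 h and 4 h were compared directly through the 4 h against 1 h contrast of edgeR's quasi-likelihood test, and 8 members differed, where 18.7% of all genes tested were higher at 4 h than at 1 h and 19.8% lower. The log2 difference of the 4 h effect from the 1 h effect was -0.89 for *Bcl2*, -0.92 for *Bcl2l1*, 0.18 for *Mcl1*, -1.0 for *Bcl2a1b*, -0.42 for *Bcl2l11*, -0.44 for *Bbc3*, 0.82 for *Bid* and 0.32 for *Bak1*. Only *Bid* was called in opposite directions at the 2 times.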

How the results depend on the processing

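The number of members called at an adjusted p under 0.05 stayed within 1.5 times its value in every alternative that kept this threshold. It was 4 to 5 at 1 h, 5 to 7 at 4 h and 6 to 8 between the time points with 1 library left out, where 16.7% to 19.8%, 35.6% to 39.7% and 33.5% to 37.8% of all genes were called. With the mouse as a block it was 6, 8 and 9, while the share of all genes called rose from 20.1%, 40.0% and 38.5% to 27.0%, 47.4% and 46.6%. Under an adjusted p of 0.01 it was 2, 4 and 5, against 12.8%, 29.2% and 26.6% of all genes. The block added calls for *Mcl1* and *Pmaip1* at 1 h, *Pmaip1* at 4 h and *Bax* between the time points, given beside those results, and changed no other call. For single members, 528 of 573 alternatives kept direction and side of the threshold, 10 added a call, 20 lost one and 15 turned the direction of a change that was not called. *Bcl2a1b* at 1 h was -0.0121 with library size only, and -0.0464 to 0.193 with a library left out. *Bak1* at 1 h was 0.00298 with DESeq2, 0.00299 with RLE factors, 0.0011 without the filter, 0.00434 in the fit of 2 groups and -0.0351 to 0.068 with a library left out. With a library left out, *Bcl2* at 4 h ranged from -0.143 to 0.117, *Mcl1* at 4 h from -0.022 to 0.0704 and *Pmaip1* between the time points from -0.268 to 0.0218. The *Mcl1* rise from 1 h to 4 h was lost without the filter (adjusted p = 0.0634) and in 8 of 12 fits with a library left out. *Bcl2l11*, *Bcl2l1*, *Bcl2a1b*, *Bid* and *Bcl2* kept their calls in all alternatives at this threshold. The causes were not tested. Depth limits mainly *Bcl2* and *Bcl2a1b*, with raw counts as low as 49 and 39 in a library.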
